A study of Sus scrofa domesticus with 4 samples.

Results

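Macrophages of the anterior pituitary were followed through 9 genes, AIF1, CD163, CD14, FCGR1A, C1QA, C1QB, C1QC, TYROBP and FCER1G. They were chosen by name, with earlier results of these data known. Every array probe whose RefSeq accession belongs to one of them was taken. That gave 15 of the 43603 probes on the array and 9 of the 3029 genes these name. Of these 15 probes, 14 were bright enough to be tested, and they covered all 9 genes. RNA of the anterior lobe came from 4 pregnant gilts, young female pigs mated naturally and carrying conceptuses on days 15 to 16, and from 4 cyclic gilts on days 15 to 16 of the estrous cycle. All were mature Large White x Polish Landrace animals, and their RNA integrity numbers lay between 7.5 and 10. Each of 4 two-colour arrays compared 1 pregnant with 1 cyclic gilt. By the label fields, the Cy3 dye (green) marked pregnant RNA on arrays 1 and 3, and Cy5 (red) marked it on arrays 2 and 4.

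Macrophages are phagocytes of the innate immune system that reside in most tissues, the pituitary included, where they lie between hormone cells and vessels. They sense microbial products and antibody-coated particles through surface receptors, and several of those receptors have no signalling tail and borrow small adaptors such as TYROBP and FCER1G. They are also a main source of C1q, the recognition molecule that starts the classical complement pathway and is built from A, B and C chains. Days 15 to 16 fall in the period when pig conceptuses begin to attach to the uterus. Whether the gland of pregnant animals differed from that of cyclic animals in these transcripts was the question the comparison addresses.

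Ratios are given as log2 (pregnant over cyclic). Each estimate carries its standard error from a limma fit over 4 arrays, which also allows for a dye effect at each probe. An intensity is the log2 fluorescence of 1 gilt's RNA on 1 probe, and it does not rank genes against each other. All 9 genes were well above background in each of the 8 gilts on at least 1 probe. The number of arrays limits the precision. Between 50.5% and 60.5% of the probes were well above background in a pregnant gilt, and between 52.6% and 66.6% in a cyclic gilt. Over 25138 probes tested, limma with Benjamini-Hochberg adjustment called 0 (0% of probes, smallest adjusted p = 0.1253), while 2012 probes (8%) had an unadjusted p under 0.05. A fit of the separate channels in limma called 4, and leaving out array 1 gave 8 calls.

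AIF1, whose protein IBA1 is an actin-bundling calcium-binding protein used as a general marker of macrophages and microglia, had the highest estimates of the 9 genes under the processing used here. FCGR1A stood higher with the scanner software's processed signals. The brighter AIF1 probe (RefSeq NM_001129950) had intensities of 10.55, 11.17, 10.52 and 10.14 in the pregnant gilts of arrays 1 to 4 and of 10.18, 10.37, 10.29 and 10.01 in the cyclic gilts. The pregnant gilt was the brighter of the pair on 4 of 4 arrays, although the 2 groups overlapped. The ratios were 0.37, 0.80, 0.23 and 0.13, and the fit gave 0.38 ± 0.14, a 1.31-fold difference. The other AIF1 probe had intensities of 9.93, 10.03, 9.46 and 9.27 in pregnant gilts and of 9.42, 9.43, 9.28 and 9.15 in cyclic gilts. It was likewise brighter in the pregnant gilt of every pair, with ratios of 0.51, 0.60, 0.18 and 0.12. Its fit gave 0.35 ± 0.13. Both AIF1 probes had an unadjusted p under 0.05 (0.0384 and 0.0393), and neither passed limma's adjustment over all probes (adjusted p = 0.605 for both). By exact permutation of signs, 2 of 16 assignments were as extreme for either probe, the fewest that 4 arrays can give in a two-sided comparison. In a bulk sample, a different number of cells of a type and a different amount of RNA per cell cannot be told apart. Leaving out array 2 lowered the estimates to 0.22 and 0.23 (limma, unadjusted p = 0.162 and 0.174), and leaving out array 4 gave 0.55 and 0.47. With 1 dye orientation on all arrays, as the labelling protocol's text has it, they would be -0.081 and -0.0064. A dye effect and a pregnancy effect cannot be told apart under that orientation, and its fit had no dye term.

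**Figure D1:**
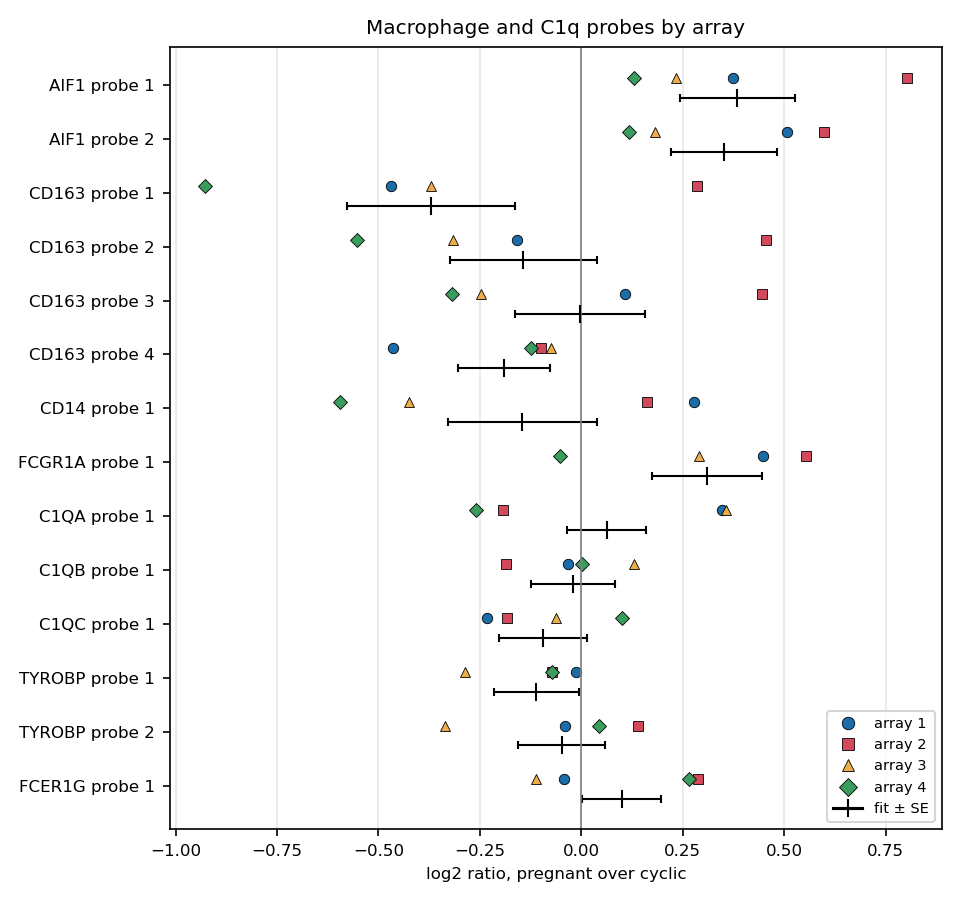
Log2 ratio of pregnant over cyclic (x axis) for the 14 tested probes of the 9 genes (rows, numbered from the brightest probe of a gene), with 1 coloured point per array and a black bar for the fit ± standard error. Both AIF1 probes lie right of 0 on 4 of 4 arrays, and the CD163 probes spread from -0.93 to 0.45.

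CD163, the scavenger receptor that takes up haemoglobin bound to haptoglobin, had the widest spread between gilts. Its brightest probe of 4 (RefSeq NM_213976) had intensities of 10.76, 10.99, 10.14 and 9.23 in pregnant gilts and of 11.23, 10.70, 10.51 and 10.16 in cyclic gilts. The pregnant gilt was dimmer on arrays 1, 3 and 4 and brighter on array 2, and the gilt of lowest intensity was the pregnant one of array 4. The ratios were -0.47, 0.29, -0.37 and -0.93, and the fit gave -0.37 ± 0.21 (limma adjusted p = 0.626). The second probe repeated the signs of the first, at -0.16, 0.45, -0.32 and -0.55, with a fit of -0.14 ± 0.18. The third stood at 0.11, 0.44, -0.25 and -0.32, so it parted from the first on array 1. The fourth was the dimmest, well above background in 2 pregnant and 3 cyclic gilts, at -0.46, -0.10, -0.074 and -0.12. All 4 probes were below 0 on arrays 3 and 4, and 3 of 4 were above 0 on array 2. Leaving out array 2 moved the first probe to -0.67 and the second to -0.39, both then lower at a looser threshold of unadjusted p under 0.05 with at least a 1.2-fold difference (limma, unadjusted p = 0.00479 and 0.0342), with adjusted p-values of 0.886 and 0.9999. Leaving out array 4 moved the first to -0.067.

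CD14, the coreceptor that hands bacterial lipopolysaccharide to TLR4, was represented by 1 tested probe (RefSeq NM_001097445). Its intensities were 8.77, 9.10, 8.27 and 8.04 in pregnant gilts and 8.49, 8.94, 8.69 and 8.64 in cyclic gilts. The pregnant gilts included both the brightest and the dimmest animal, and the cyclic gilts lay between them. The ratios of 0.28, 0.16, -0.42 and -0.60 differed in sign between arrays 1 and 2 and arrays 3 and 4, and the fit gave -0.15 ± 0.18 (limma adjusted p = 0.818). The other CD14 probe was well above background in 1 pregnant and 2 cyclic gilts and was not tested.

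FCGR1A, the high-affinity receptor for immunoglobulin G, lay close to background on its single probe (RefSeq NM_001033011), although it was scored well above it in all 8 gilts. The intensities were 6.93, 7.18, 7.15 and 6.92 in pregnant gilts and 6.48, 6.62, 6.86 and 6.98 in cyclic gilts. Pregnant gilts were brighter on arrays 1, 2 and 3, and on array 4 the pair was nearly level. The ratios were 0.45, 0.55, 0.29 and -0.053, and the fit gave 0.31 ± 0.14 (unadjusted p = 0.0662, limma adjusted p = 0.605). The constant of 50 added to each intensity before the logarithm compresses the ratio of so dim a probe. With 10 in its place the estimate was 0.47 (limma, unadjusted p = 0.0401, adjusted p = 0.583). With the scanner software's processed signals the estimate was 0.93 (unadjusted p = 0.0121, limma adjusted p = 0.588). Without array 2 it was 0.16. With background (normexp) parameters estimated from all spots, at the constant of 50, the estimate was 0.12 (limma, unadjusted p = 0.0426, adjusted p = 0.578). The separate-channel fit kept it at 0.31 (limma, unadjusted p = 0.0197, adjusted p = 0.284).

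The adaptors that carry the signals of such receptors stayed near 0. TYROBP, also called DAP12, pairs with activating receptors such as TREM2 and carries the tyrosine motif that recruits the kinase SYK. Its brighter probe (RefSeq NM_214202) had intensities of 9.95, 10.07, 9.76 and 9.65 in pregnant gilts and of 9.96, 10.15, 10.05 and 9.72 in cyclic gilts. The pregnant gilt was the dimmer of the pair on 4 of 4 arrays, by ratios of -0.013, -0.072, -0.29 and -0.073. The fit gave -0.11 ± 0.11 (limma adjusted p = 0.754), with a 95% interval of -0.37 to 0.15. The second TYROBP probe stood at -0.040, 0.14, -0.34 and 0.043, so its sign differed from that of the first on arrays 2 and 4, and its fit was -0.048 ± 0.11.

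FCER1G, the common gamma chain that FCGR1A needs at the cell surface and that mast cells use for the receptor of immunoglobulin E, had 1 probe (RefSeq NM_001001265). Its intensities were 9.31, 10.06, 9.55 and 9.51 in pregnant gilts and 9.35, 9.77, 9.66 and 9.24 in cyclic gilts. The ratios were -0.043, 0.29, -0.11 and 0.27, positive where the pregnant RNA carried Cy5 and negative where it carried Cy3, so red exceeded green on 4 of 4 arrays. The fit, which takes the dye into account, gave 0.10 ± 0.097 (limma adjusted p = 0.761). Its 95% interval ran from -0.14 to 0.34.

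Estimates for the C1q chains lay close to 0 with the alternating dyes of the label fields. Their genes lie side by side in the order C1QA, C1QC, C1QB in the pig assembly Sscrofa11.1, and 1 chain of each kind makes up a C1q subunit. C1QA (RefSeq NM_001003924) had intensities of 11.33, 10.82, 10.94 and 10.07 in pregnant gilts and of 10.98, 11.01, 10.58 and 10.33 in cyclic gilts. Its ratios of 0.35, -0.19, 0.36 and -0.26 followed the dye in the opposite sense to FCER1G, with green above red on 4 of 4 arrays. The fit gave 0.063 ± 0.097, with a dye effect, red over green, of -0.29. With a single dye orientation on all arrays, C1QA would stand at 0.29 (limma, unadjusted p = 0.0211, adjusted p = 0.537) and would be the 1 probe of the 9 genes at the looser threshold. That value is the dye effect with its sign turned, so dye and pregnancy cannot be told apart in it.

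C1QB (RefSeq NM_001244283) had intensities of 12.08, 11.76, 11.90 and 11.31 in pregnant gilts and of 12.11, 11.95, 11.77 and 11.30 in cyclic gilts. The groups lay on top of each other, with ratios of -0.032, -0.18, 0.13 and 0.0012. The fit gave -0.022 ± 0.10, with a 95% interval of -0.28 to 0.24. C1QC (RefSeq NM_001244286) had intensities of 10.42, 10.58, 10.47 and 10.26 in pregnant gilts and of 10.65, 10.77, 10.54 and 10.16 in cyclic gilts. The pregnant gilt was dimmer on arrays 1 to 3 and brighter on array 4, with ratios of -0.23, -0.18, -0.063 and 0.10. Its fit gave -0.094 ± 0.11. The limma adjusted p-values of the 3 chains were 0.855, 0.960 and 0.799, and the 95% intervals were -0.18 to 0.31 for C1QA and -0.37 to 0.18 for C1QC.

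**Figure D2:**
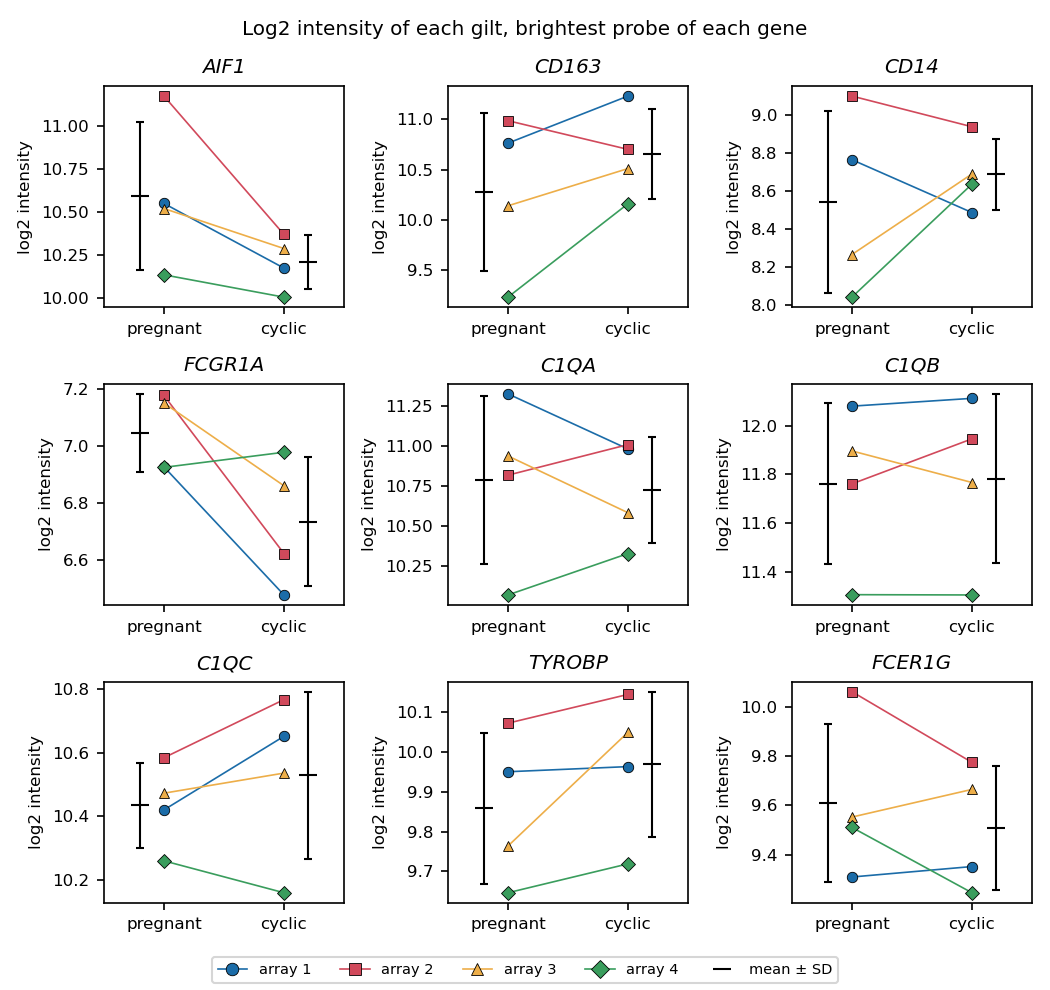
Log2 intensity (y axis, a separate scale in each panel) of the brightest probe of each gene in the 4 pregnant gilts (left) and the 4 cyclic gilts (right), with a line joining the 2 gilts of an array and black bars for the mean ± SD of a group. Pregnant and cyclic values overlap for each of the 9 genes, and the 4 lines of AIF1 all run downward to the cyclic gilt.

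Set side by side, the 14 probes did not move one way. Of the 14, 5 had an estimate above 0 and 9 below, where 47.6% of all probes tested were above 0 and 52.4% below. At an unadjusted p under 0.05 were 2 of the 14, both of AIF1 and both higher in pregnant gilts, where 3.43% of all probes were higher and 4.57% lower at that threshold. Both also differed by at least 1.2-fold, which with that p held for 7.84% of all probes, 3.35% higher and 4.5% lower. As 2 probes of 1 transcript, they count as 1 gene of 9. When array 1 was left out, 0 probes of the 9 genes passed, and when array 2 was, 0 of the 2 AIF1 probes did and 2 CD163 probes passed as lower. When array 3 was left out, 1 AIF1 probe passed, and when array 4 was, FCGR1A passed beside both of AIF1. The number passing was 0 with normexp parameters from all spots or with median centring. Ratios had 1 sign on all arrays for 4 of the 14 probes, 2 above 0 and 2 below, where 14.6% of all probes tested did, 6.81% above and 7.75% below. The 4 pregnant values were all above or all below the 4 cyclic values for 0 of the 14 probes, where this held for 2.14% of all probes. The median ratio of the 14 probes was -0.035, and that of all probes tested was -0.0096. By array the median of the 14 was -0.023, 0.22, -0.093 and -0.063, so array 2 stood on the other side of 0. The median SD between arrays was 0.25 for these probes and 0.27 for all probes tested.

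Both gilts of array 4 had low levels of most of the 9 genes. The pregnant gilt of array 4 had the lowest of the 4 pregnant values for 8 of the 9 genes, FCER1G being the exception, where 17.7% of all probes had their lowest pregnant value on that array. The cyclic gilt of array 4 had the lowest of the 4 cyclic values for 7 of the 9 genes, the exceptions being CD14 and FCGR1A, where 19.6% of all probes did. That count was chosen after the values were seen. Averaged over the 9 genes and centred gene by gene, the intensities were 0.14, 0.32, -0.017 and -0.41 in the pregnant gilts of arrays 1 to 4 and 0.064, 0.16, 0.010 and -0.26 in the cyclic gilts. The median intensity of all tested probes was 8.55 in the pregnant gilt and 8.51 in the cyclic gilt of array 4, within the 8.50 to 8.59 of the other gilts. Normalization within and between arrays makes these medians nearly equal by design, so they cannot show whether array 4 was dim as a whole. Since both gilts of a pair share an array, the array and the animals cannot be told apart here.

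**Figure D3:**
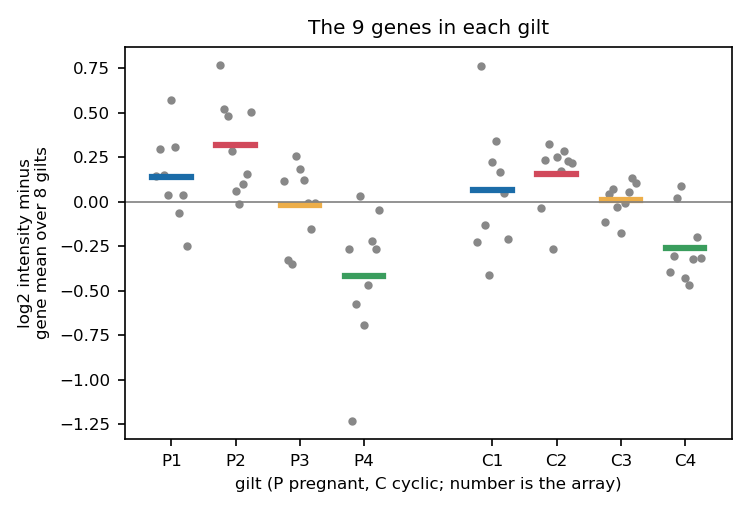
Log2 intensity of the brightest probe of each of the 9 genes minus that gene's mean over the 8 gilts (grey points, y axis), for pregnant gilts P1 to P4 (left) and cyclic gilts C1 to C4 (right), with coloured bars for the mean of the 9 genes. The bars of both gilts of array 4 are the lowest of their group, at -0.41 and -0.26.

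The genes whose intensity over the 8 gilts most resembled the mean of these 9, among 2397 other genes with a symbol, were GRB10 (Pearson r = 0.957), KLF3 (0.913), CCL19 (0.910), GP91-PHOX (0.904) and SLA-DMB (0.892). These correlations describe 8 gilts that share 4 arrays, and 24 of the 2397 genes had an r over 0.8.

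Complement genes beyond C1q lay lower in the pregnant gilts where they passed the looser threshold. Of 40 listed, 28 had a named probe and 19 were bright enough to test. At an unadjusted p under 0.05, 5 were lower (26.3%) and 0 were higher, where 4.9% of the 2406 genes with a symbol were lower and 3.82% higher. By limma's adjusted p 0 passed (0.605 for all 5). This list and the other lists were chosen with earlier results of these data known, so their shares are a description only. The median ratio of the 19 complement genes was -0.12, against -0.0064 for all genes with a symbol. It was lower still for the 11 tested genes of pituitary hormones and their factors (-0.31) and for the 5 endothelial genes (-0.21). Signalling genes below TYROBP and FCER1G stood at -0.092, platelet and red cell genes at -0.084 and lymphocyte genes at -0.0089. Posterior and intermediate lobe genes stood at 0.023, other macrophage genes at 0.052 and neutrophil and mast cell genes at 0.19. By array the median of the complement genes was -0.26, 7.7e-05, -0.17 and 0.027. It thus lay below 0 on arrays 1 and 3, where the pregnant RNA carried Cy3, and near 0 on arrays 2 and 4. Of these 5, 3 stayed under that p when array 1 was left out, 2 when array 2 was, 1 (CLU) when array 3 was and 3 when array 4 was, and CALR and CFB, named after their values were seen, joined CLU without array 3. The count was 2 in a fit with no dye term and 2 with the authors' deposited value table, and 1 (C4BPA) with a single dye orientation, which put CLU at 0.20 and SERPING1 at 0.028.

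CLU, clusterin, a carrier that also binds the terminal complement complex, stood at -0.60, -1.19, -0.23 and -0.43 on arrays 1 to 4, with a fit of -0.61 ± 0.16. SERPING1, the inhibitor of the proteases C1r and C1s that C1q activates, stood at -0.58, -0.87, -0.23 and -0.043, with a fit of -0.43 ± 0.17. Both were lower in the pregnant gilt of every pair, and the 2 other SERPING1 probes shared the sign. C3, the central component that all pathways cleave, was at -0.34, -0.0029, -0.61 and -0.13, with a fit of -0.27 ± 0.11 and 4 of 4 other probes of the same sign. C6, a component of the membrane attack complex, was at -1.83 on array 3, at -0.36 and -0.41 on arrays 1 and 4, and level on array 2, with a fit of -0.65 ± 0.25. C4BPA, a chain of the C4b-binding protein, was at -1.05, 0.39, -1.42 and 0.26. Its sign followed the dye, with red above green on 4 of 4 arrays. The fit gave -0.46 ± 0.11 (limma, unadjusted p = 0.00817). Without the dye term the estimate was the same and the unadjusted p was 0.198 (limma), so the low p rested on that correction. C7, the next in rank and another component of the attack complex, was at -0.21 ± 0.11 with an unadjusted p of 0.10 (limma). Its ratios of -0.67, 0.073, -0.37 and 0.13 also followed the dye in sign.

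Other genes of macrophages and monocytes were mixed. Of 52 listed, 29 had a named probe and 24 were tested, with 15 estimates above 0 and 9 below, where 48.6% of all genes with a symbol were above 0. At an unadjusted p under 0.05, 2 were higher (8.33%) and 1 was lower (4.17%), a share of 12.5% where 8.73% of all genes with a symbol passed, and 0 passed limma's adjusted threshold. GP91-PHOX, the catalytic subunit of the phagocyte NADPH oxidase, stood at 0.51, 0.34, 0.29 and 0.15, with a fit of 0.33 ± 0.11. TLR4, the lipopolysaccharide receptor that works with CD14, stood at 0.34, 0.27, 0.11 and 0.63, with a fit of 0.34 ± 0.12 and 2 of 2 other probes of the same sign. FOLR2, a folate receptor of resident macrophages, went the other way at -0.12, -0.95, -0.24 and -0.37, with a fit of -0.42 ± 0.13. These 3 genes had 1 sign on 4 of 4 arrays and a limma adjusted p of 0.605. With a single dye orientation FOLR2 would stand at 0.24 and TLR4 at -0.11, so their shared signs rest on the label fields. Of GP91-PHOX and TLR4, 0 stayed under that p without array 1 or array 3, 1 (TLR4) without array 2 and 1 (GP91-PHOX) without array 4, and FOLR2 did not without array 1, 2 or 3.

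Next in rank were ITGB2, the shared beta chain of leukocyte integrins, at 0.28 ± 0.13, HMOX1, the inducible haem oxygenase, at 0.40 ± 0.20, and TLR2, a sensor of bacterial lipoproteins, at 0.22 ± 0.12. All 3 had ratios above 0 on 4 of 4 arrays and an unadjusted p above 0.05, and for HMOX1 array 2 alone was at 1.22 and 1 of 2 other probes had the opposite sign. Of the genes that act below TYROBP and FCER1G, 3 of 20 listed were tested. At an unadjusted p under 0.05 were 0 of them, where 8.73% of all genes with a symbol passed. SYK, the kinase recruited to their tyrosine motifs, stood at 0.51, 0.11, 0.16 and 0.31, with a fit of 0.27 ± 0.11. GRB2, an adaptor, was at -0.13 ± 0.12 and FYN, a Src family kinase, at -0.092 ± 0.13.

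**Figure D4:**
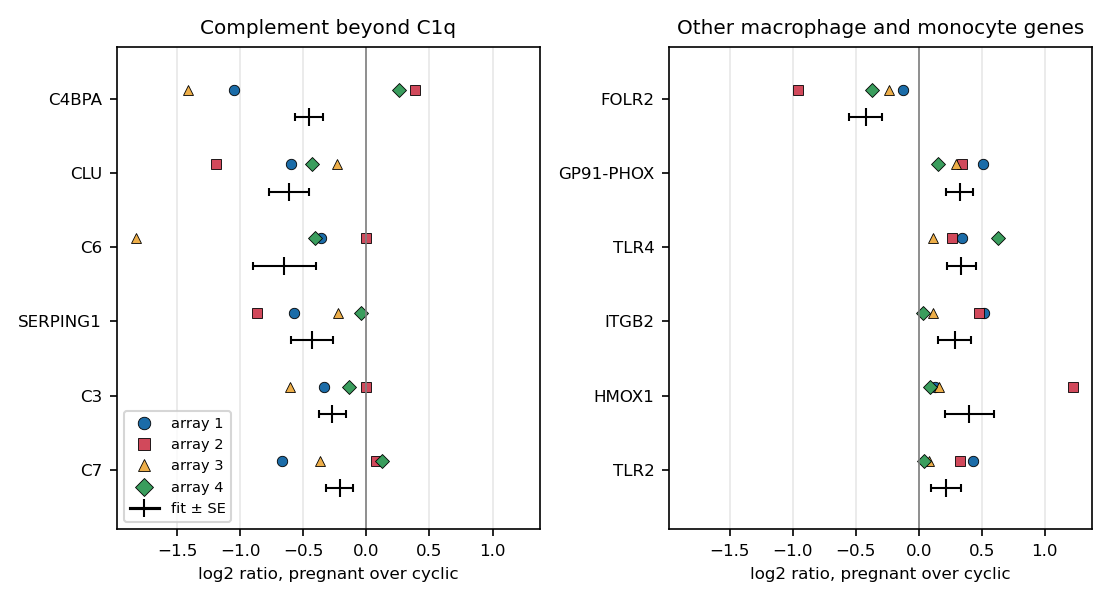
Log2 ratio of pregnant over cyclic (x axis) for the 6 complement genes (left) and the 6 macrophage and monocyte genes (right) of lowest unadjusted p, with 1 coloured point per array and a black bar for the fit ± standard error. CLU, SERPING1, C3 and FOLR2 lie below 0 on 4 of 4 arrays, and C4BPA and C7 split by dye orientation.

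Markers of other leukocytes, some of which carry the same transcripts, ranged between background and clear signal. The neutrophil genes S100A8, S100A9 and S100A12 were each well above background in 1 pregnant gilt and in 1, 2 and 2 cyclic gilts. The T cell gene CD2 was so in 1 pregnant and 0 cyclic gilts, CD3E in 3 and 4, and MS4A2, the beta chain of the mast cell receptor for immunoglobulin E, in 0 and 0. Of 3 neutrophil and mast cell genes tested, KIT was the 1 at an unadjusted p under 0.05, at 0.57 ± 0.12, while LTF was at 0.19 ± 0.10 and MMP9 at -0.13 ± 0.11. Unlike MS4A2, KIT was well above background in 4 pregnant and 4 cyclic gilts, and which cells gave its signal was not tested. With a single dye orientation KIT would stand at -0.42. Of 10 lymphocyte genes tested, CD79A, a chain of the B cell receptor complex, was the 1 at that threshold (10%), at -0.69 ± 0.24. KLRK1 was at 0.36 ± 0.15 and CD8A at 0.23 ± 0.11. Both were dim, KLRK1 being well above background in 4 pregnant and 2 cyclic gilts and CD8A in 2 and 2. The part of these other leukocytes in the ratios of the 9 genes was not tested.

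Vessel and blood genes gave 0 of 5 and 0 of 3 tested genes at an unadjusted p under 0.05, where 8.73% of all genes with a symbol passed. ENG, VWF and CDH5 of the endothelium were at -0.40 ± 0.17, -0.24 ± 0.11 and 0.51 ± 0.25, although the 1 other CDH5 probe had the opposite sign. ITGA2B, GP9 and HBE1 of platelets and red cells were at -0.21 ± 0.14, -0.084 ± 0.10 and -0.0098 ± 0.13. Hormone cells of the anterior lobe were plainly present, since GH1, PRL, POMC, CGA, LHB, FSHB and TSHB were well above background in all 8 gilts. Of 11 genes of these cells tested, 2 were lower at an unadjusted p under 0.05 (18.2%), where 4.9% of all genes with a symbol were. They were CHGA at -0.56 ± 0.19 and LHB at -0.42 ± 0.15, and NR5A1 was at -0.38 ± 0.17. OXT, the oxytocin precursor made by neurons that end in the posterior lobe, was also well above background in all 8 gilts, with ratios of -0.67, -0.62, 0.025 and -0.16 and a fit of -0.36 ± 0.16. AVP, the vasopressin precursor of the same lobe, was well above background in 1 pregnant and 2 cyclic gilts and was not tested. PCSK2, a convertase prominent in the intermediate lobe, had ratios of 1.43, -0.55, -0.82 and 1.56. The posterior lobe holds microglia, which share most of the 9 markers, and whether traces of that lobe bear on their ratios was not tested.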

How the data were processed

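RNA of 4 pregnant and 4 cyclic gilts was hybridised in pairs on 4 Agilent porcine arrays. Each deposited scanner file gives median intensities per spot and for the local background, as well as processed intensities and log10 ratios after background subtraction and dye normalization, from Agilent Feature Extraction 10.7.3.1 at 5 micron, per the file headers. The authors' deposited value table holds log2 ratios, equal to processed red over green within 0.001 for all 43553 probes spotted once, turned to pregnant over cyclic by the dye labels. The column medians were 0.150, -0.0102, 0.0650 and -0.0726, so no centring was found. The label fields, in which the dyes alternate, were followed. The text on labelling has 1 orientation throughout. As an alternative setting it was fitted with no dye term, so its values cannot separate a dye effect from a pregnancy effect.

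Analyses used R 4.3.3, limma 3.58.1 and the data.table package, version 1.17.8. Median intensities were background-corrected by normexp (offset 50). Its parameters were estimated without spots marked as outliers (377 to 3480 of 45220 per channel). Ratios were normalized by loess (span 0.3, 1417 control spots at weight 0), outlier spots (26 to 63 per array) were left out, and spots of a probe were averaged. A probe was tested if 4 or more of its 8 channels were well above background and all 4 arrays gave a value, which left 25138 of 43603. Single-gilt intensities were taken after loess and Aquantile normalization. RefSeq accessions were named by the Sscrofa11.1 annotation (6700 probes with 1 symbol, 1 listed gene, CYBB, matched through its synonym), and other probes are unnamed here. limma's lmFit and eBayes estimated the ratio and the dye effect, and p-values were adjusted by Benjamini-Hochberg over all probes (threshold 0.05). The looser threshold took the unadjusted p at 0.05, where stated together with a 1.2-fold difference. For each listed gene the probe of highest mean intensity was used. All probes of the 9 genes are named, with the 6 genes of lowest p of the macrophage and complement lists, the 3 of the other lists and the 5 of most similar pattern. The fit was tested on simulated data. Figures were drawn with matplotlib 3.10.9. The 9 genes and the lists were chosen with earlier results of these data known.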

Additional observations from a re-analysis of the deposited data

Results flagged for a closer look

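Sets of 4 values, 74 in all, were examined for a value far from the others by Dixon's criterion, which chance alone meets in about 1 of 20 sets, and 3 met it. For the dimmest CD163 probe, array 1 stood at -0.46 while the others lay between -0.12 and -0.074, and that probe was well above background in 2 pregnant and 3 cyclic gilts. For HMOX1, array 2 stood at 1.22 while the others lay between 0.089 and 0.16. For CD8A, array 3 stood at -0.039 while the others lay between 0.30 and 0.35.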

How the results depend on the processing

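The 14 probes of the 9 genes gave 213 values under 16 other settings, of which 0 passed the adjusted threshold and 14 had the opposite sign. Their median stayed within -0.13 and 0.062. The ratios are paired by array, 1 pregnant with 1 cyclic gilt, so no further block was fitted. The cause of the changes below was not tested.

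Probes called over the whole array (0) were 3 with an offset of 10 and 4 with the separate-channel fit. Probes at the looser threshold (1972) were 761 with normexp parameters from all spots. Probes of the 9 genes at the looser threshold (2, both AIF1) were 0 with normexp parameters from all spots or median centring, and 1, of AIF1, with the brightest probe or the mean of probes per gene. They were 1, but FCGR1A, with the scanner's processed signals or the authors' deposited value table, and 1, but C1QA at 0.29, with a single dye orientation. An offset of 10 or the separate-channel fit gave 3, FCGR1A beside both AIF1 probes. Lower complement genes (5) were 3 with an offset of 10, median centring or the separate-channel fit, 2 with no dye term, the scanner's signals, the mean of probes or the authors' deposited value table, and 1 with a single orientation, each among the 5. With all spots they were 4, of which 2 were among the 5. Higher macrophage genes (2) were 1 with all spots (GP91-PHOX), the scanner's signals or the authors' deposited value table (TLR4), 1 other (CYBA) with a single orientation, and 0 with median centring. With the mean of probes they were 2, GP91-PHOX and GPNMB, and with the separate-channel fit 3, HMOX1, ITGB2 and TLR4. Lower ones (1, FOLR2) were 0 with the scanner's signals, median centring or the authors' deposited value table, and 2 others (FCGR2B and FCGR3A) with a single orientation. CYBA, GPNMB, FCGR2B and FCGR3A were named after their values were seen. Listed genes at an unadjusted p under 0.05, 12 in all, were 7 with median centring and 20 with the separate-channel fit.

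Normexp parameters from all spots turned FCER1G to -0.016 and FYN to 0.10. The scanner's signals and the authors' deposited value table turned HBE1 to 0.22. A single dye orientation, which the labelling text describes, turned the AIF1 probes to -0.081 and -0.0064, CD14 to 0.072, C1QB to 0.070, FCER1G to -0.18, FOLR2 to 0.24, TLR4 to -0.11, HMOX1 to -0.25, CLU to 0.20, SERPING1 to 0.028, FYN to 0.56, CD8A to -0.088, KIT to -0.42, LTF to -0.053, MMP9 to 0.0085, ITGA2B to 0.056, GP9 to 0.0019, ENG to 0.082, CDH5 to -0.23, NR5A1 to 0.29, OXT to 0.034 and PCSK2 to -0.099.

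Leaving out 1 array at a time gave 0 to 8 probes called (8 without array 1) and 921 to 3237 at the looser threshold (921 without array 1, 957 without array 2, 3237 without array 4). The 9 genes' probes at that threshold ranged from 0 (without array 1) to 3 (without array 4) and were 2 of CD163, lower, without array 2, the listed genes from 5 (without array 2) to 19 (without array 4), lower complement genes from 2 to 5, higher macrophage genes from 0 to 2 and lower ones from 0 to 1. The sign turned within the ranges of C1QB (-0.068 to 0.025), CD14 (-0.33 to 0.044), the second CD163 probe (-0.39 to 0.11), the third (-0.19 to 0.19), the second TYROBP probe (-0.12 to 0.026), HBE1 (-0.13 to 0.11), FYN (-0.23 to 0.051) and PCSK2 (-0.16 to 0.97). Dim probes such as FCGR1A are limited by their signal over background.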
